A study of Mus musculus with 4 samples.

Results

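The tensins are 4 mouse genes, Tns1, Tns2, Tns3 and Tns4, and 8 probe sets read them on the array used here. A probe set was taken when the platform annotation gave it exactly 1 gene symbol and that symbol was one of these names; 34945 probe sets carried 1 symbol, and they named 18193 genes. Where a gene had several probe sets, the one with the highest mean log2 signal leads and the others are given beside it. The family was chosen by the signal of Tns1, which was already known to be higher with 100 nM aldosterone than with ethanol in these libraries, so the values below are a description. A filter kept a gene when its leading probe set reached, in mean log2 signal, the median over the whole array, which was a signal of 55.9. It kept 3 of the 4 tensins (5 of the 8 probe sets) and 11057 of the 18193 genes.

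The cells were mDCT, an immortalised mouse line derived from the distal convoluted tubule, the nephron segment where aldosterone begins to control sodium uptake. All of them had been transfected with a plasmid that overexpresses the human mineralocorticoid receptor (MR), which binds aldosterone, with a FLAG tag, and no library came from cells without it. At 48 h they were given spironolactone, which blocks the MR, or ethanol, and 2 h later aldosterone or ethanol for 3 h. One group received ethanol at both steps, and others received aldosterone at 1 nM or at 100 nM after ethanol. The last received 5 µM spironolactone before the 100 nM dose and is called the spironolactone group. Each group was 1 library made from 250 ng of total RNA, and spironolactone alone was not among them. With 1 library per group there is no replicate error, so no p-value, SD or interval is given and every difference is one between 2 libraries. Each signal is an average over a transfected culture, in which fewer responding cells and less RNA per cell cannot be told apart.

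The libraries were on a common scale: the trimmed mean signal lay at 497 in each, and the median signal lay between 58.7 and 61.5. Across the 11057 genes the correlation between 2 libraries was 0.991 at the lowest and 0.992 at the highest. Markers of the labelled segment were mostly dim. Of 9 distal convoluted tubule markers with a probe set, 5 passed the filter: Wnk4 (159 to 247), Cnnm2 (142 to 208) and the dimmer Egf, Trpm6 and Pvalb. Slc12a3, the thiazide-sensitive sodium chloride cotransporter that defines the segment, had signals from 3.93 (ethanol) to 17.2 (1 nM), all under the filter. Of 7 epithelial markers 3 passed: Cdh16 and Pax8, with lowest signals of 2406 and 744, and Epcam, with a lowest signal of 137. The defining epithelial cadherin Cdh1 (highest signal 21.5) and the keratin genes Krt8, Krt18 and Krt19 (highest signals 56.8, 45.5 and 8.05) did not. Of the other lists, 5 of 6 proximal tubule, 1 of 6 principal cell, 0 of 4 intercalated cell, 0 of 7 fibroblast, 1 of 5 endothelial and 1 of 5 leukocyte markers passed. The proximal tubule markers Aqp1 (2069 to 2479) and Lrp2 (463 to 567) were brighter than every distal marker. Slc34a1, Cubn and Slc5a2 passed with signals of at most 106, and Slc22a6 did not pass.

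Tensins are scaffold proteins of focal and fibrillar adhesions, the sites where integrins tie the extracellular matrix to the actin cytoskeleton. Their carboxy-terminal part carries an SH2 domain, which binds phosphotyrosine, and a PTB domain, which binds the cytoplasmic tail of integrin beta chains. Tns1, Tns2 and Tns3 also hold an amino-terminal region that reaches the actin side, whereas Tns4 (also called Cten) lacks it and can displace the longer tensins from integrin tails. Tns1 is enriched in fibrillar adhesions, where fibronectin fibres are assembled. Tns2 is needed for the kidney filter in mice, and Tns3 is tied to growth factor receptor signalling and cell migration.

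The promoter windows of Tns1, Tns2 and Tns3 are shown as background, and a link between them and the signals was not tested. They come from RefSeq (GRCm38.p6), 1 window for each of these 3 genes, and run 5′ to 3′ from 250 bases before to 50 bases after the annotated start. Capitals mark the GC box GGGCGG on either strand.
Tns1 (chr1:74124499-74124798, minus strand): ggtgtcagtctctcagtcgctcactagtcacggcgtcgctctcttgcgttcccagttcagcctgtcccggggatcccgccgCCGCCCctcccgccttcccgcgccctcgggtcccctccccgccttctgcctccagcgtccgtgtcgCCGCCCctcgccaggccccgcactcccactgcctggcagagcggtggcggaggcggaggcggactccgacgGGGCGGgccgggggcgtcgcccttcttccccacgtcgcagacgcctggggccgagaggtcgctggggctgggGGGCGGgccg
Tns2 (chr15:102102684-102102983, plus strand): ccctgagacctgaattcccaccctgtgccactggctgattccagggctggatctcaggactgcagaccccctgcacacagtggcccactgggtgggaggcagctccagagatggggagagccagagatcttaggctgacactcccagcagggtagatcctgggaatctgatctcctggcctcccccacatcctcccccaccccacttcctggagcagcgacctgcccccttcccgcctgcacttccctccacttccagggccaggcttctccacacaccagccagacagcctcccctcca
Tns3 (chr11:8664486-8664785, minus strand): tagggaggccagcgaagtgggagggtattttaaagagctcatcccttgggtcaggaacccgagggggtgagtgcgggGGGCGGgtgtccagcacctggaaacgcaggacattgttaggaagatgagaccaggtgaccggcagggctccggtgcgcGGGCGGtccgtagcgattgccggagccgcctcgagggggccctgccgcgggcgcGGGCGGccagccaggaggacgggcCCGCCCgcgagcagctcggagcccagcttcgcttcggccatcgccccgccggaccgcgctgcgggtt

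The Tns1 window was 75.7% G and C and held 4 GC boxes, the Tns3 window was 70.7% G and C with 4, and the Tns2 window was 63.7% G and C with 0. Of all 32851 windows in the table, 35.7% held a GC box. MR and the glucocorticoid receptor bind a palindrome, AGAACA and TGTTCT with 3 bases between them; AGAACA alone is its arm. Searched on both strands, neither was in any of the 3 tensin windows. The arm, which the palindrome contains, was in 19.0% of all windows and the whole palindrome in 3 windows. One of those 3 belonged to Sgk1, the aldosterone-induced kinase, and began 189 bases before that start; it is shown for comparison, with the palindrome in capitals.
Sgk1 (chr10:21993681-21993735, plus strand): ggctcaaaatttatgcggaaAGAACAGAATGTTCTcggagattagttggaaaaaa
Among 6 steroid reference genes described below, 1 of 14 windows held the palindrome and 4 held an arm. These windows cover only the bases next to a start, and the count of letters says nothing about binding.

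Tns1 was highest with 100 nM aldosterone in each of its 3 probe sets. In the leading probe set (1428650_at) the ethanol library had a signal of 228, the 1 nM library 268, the 100 nM library 372 and the spironolactone library 265. The 100 nM library stood above the other three, and the spironolactone and 1 nM libraries lay next to each other a little above ethanol. In the probe set 1419283_s_at the signals in the same order were 263, 225, 302 and 279. In the probe set 1449405_at they were 191, 162, 270 and 237. These last 2 probe sets, which the annotation ties to the same reference transcript, shared 1 order: 1 nM lowest, then ethanol, then spironolactone, then 100 nM. The leading probe set is tied to another transcript record and had ethanol lowest.

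**Figure D1:**
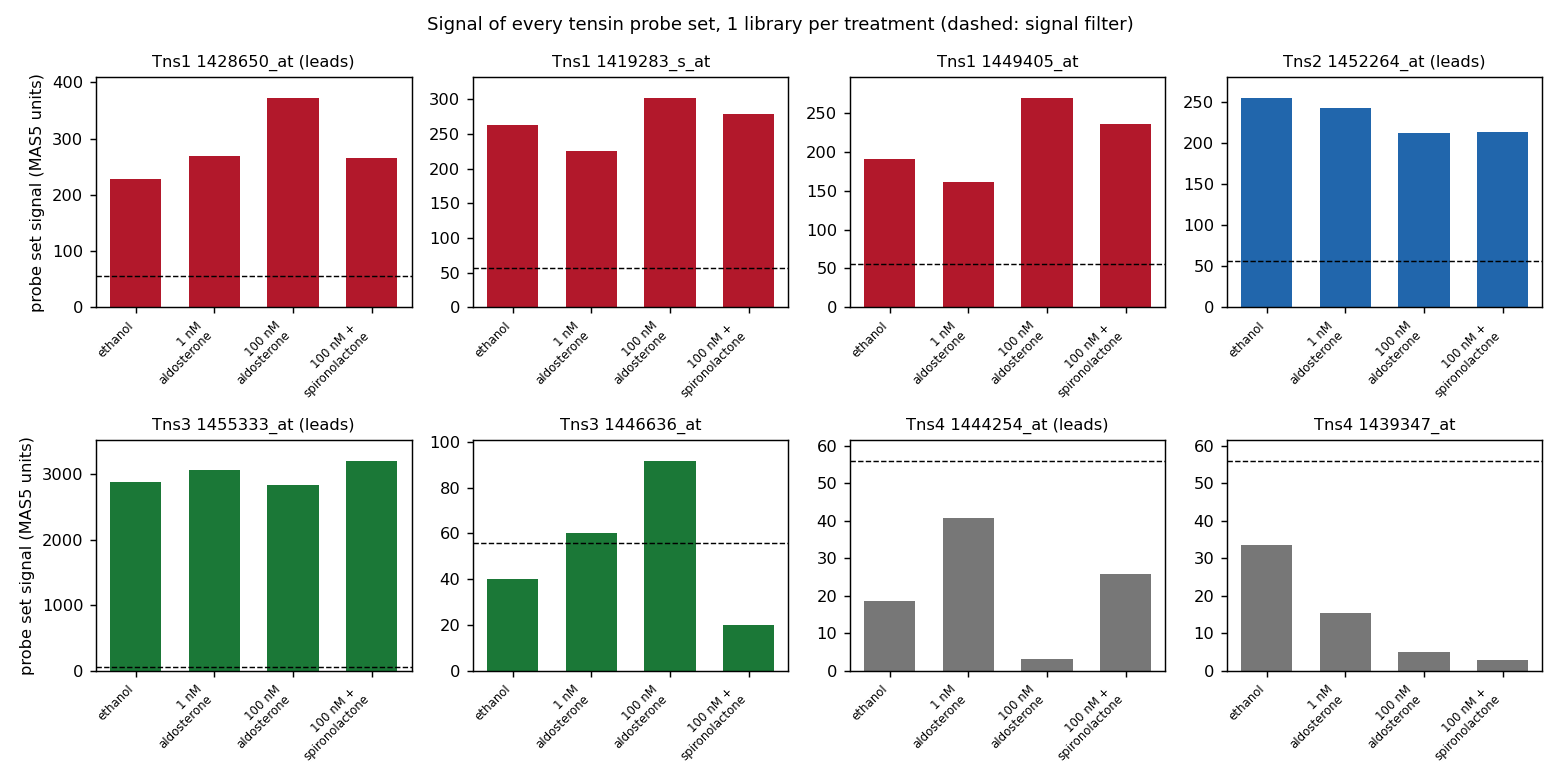
Signal of each of the 8 tensin probe sets (vertical axis, MAS5 units, each panel with its own scale from 0) in the 4 libraries (1 bar per library, no error bars because there is 1 library per treatment); the dashed line is the filter at a signal of 55.9. The 100 nM bar is the tallest in all 3 Tns1 panels, at 372, 302 and 270, while both Tns4 probe sets lie under the filter in every library.

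Against ethanol, the leading Tns1 probe set was 1.63-fold higher with 100 nM aldosterone, a log2 difference of 0.70. The other probe sets were higher by 0.20 and 0.50, and the median of the 3 was 0.50, under the 1.5-fold used here as the mark of a sizeable difference. By leading probe sets, 1 of the 3 tensins that passed the filter was at least 1.5-fold higher and 0 were lower by that much. Among all 11057 genes, 2.39% passed 1.5-fold upward and 1.72% downward. Nothing is read from the tensin count, since this comparison was among those known when the genes were chosen. Of the 11057 genes, 173 had a larger difference than Tns1. Of the 3139 genes within 2-fold of its mean signal, 1.59% were at least 1.5-fold higher, and 28, Tns1 included, were at or above 0.70.

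How far probe sets of 1 gene part within the same libraries gives a scale for these values. Over 5218 genes with at least 2 probe sets above the filter, the differences given by the brightest and the next brightest parted by a median of 0.16 on the log2 scale for 100 nM against ethanol, and by 0.54 at the 90th percentile. For Tns1 the same gap was 0.51, wider than in 88.5% of those genes. The probe sets of Tns1 thus disagreed on the size of its difference from ethanol, from 0.20 to 0.70, while all 3 were higher. They read the same 2 libraries, so this span holds no variation between cultures or arrays. The uncertainty of the difference itself is not known.

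From 1 nM to 100 nM aldosterone all 3 Tns1 probe sets were higher. The log2 differences were 0.47 (leading), 0.42 and 0.74, and the first 2 of these parted by 0.05, against a median gap of 0.15 over all such genes. By leading probe sets 0 of 3 tensins passed 1.5-fold in either direction, where 4.01% of all genes did, although the probe set 1449405_at was 1.67-fold higher. Of 2226 genes with 3 or more probe sets above the filter, 35 (1.57%), Tns1 among them, had every probe set highest with 100 nM aldosterone. The same count was 47 for ethanol, 33 for 1 nM and 31 for spironolactone, so the 100 nM library was not the one most often highest. Tns1 was chosen with its higher signal at 100 nM known, so nothing is read from its place among the 35. Klf9 had 5 of 6 probe sets highest with 100 nM and Tsc22d3 had 2 of 3.

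At 1 nM aldosterone the Tns1 probe sets went opposite ways from ethanol. The leading one was higher by 0.23, and the other probe sets differed by -0.23 and -0.24, with a median of -0.23 over the 3. No direction can be given for Tns1 at this dose. None of the 3 tensins passed 1.5-fold, where 4.68% of all genes did.

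With spironolactone the Tns1 signal lay between ethanol and 100 nM aldosterone in all 3 probe sets. Against 100 nM alone the log2 difference was -0.49 in the leading probe set, -0.11 in 1419283_s_at and -0.19 in 1449405_at, with a median of -0.19. Against ethanol the values were 0.22, 0.08 and 0.31. Expressed as a share of the log2 difference between 100 nM and ethanol, the spironolactone library was lower by 69.1%, 58.1% and 38.1% of it. Both differences in each share use the same 100 nM library, so an error in that library enters both. By leading probe sets 0 of 3 tensins passed 1.5-fold for spironolactone against 100 nM (4.33% of all genes did) and 0 of 3 against ethanol (4.21%).

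**Figure D2:**
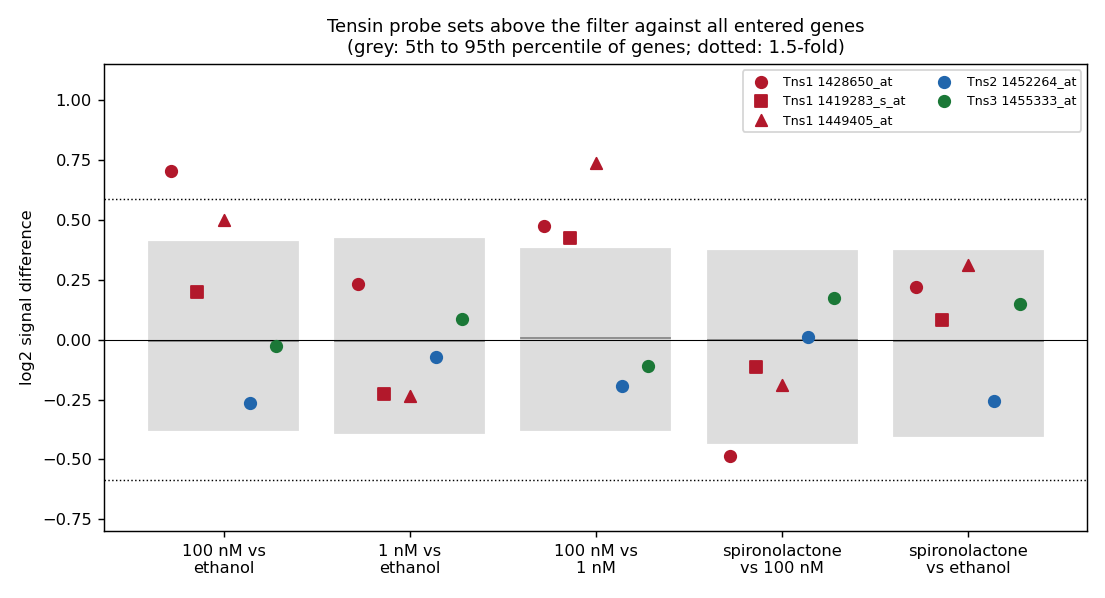
Log2 signal difference (vertical axis) of the 5 tensin probe sets above the filter in each of 5 comparisons (horizontal axis); grey boxes span the 5th to 95th percentile of the 11057 genes and dotted lines mark 1.5-fold. The Tns1 probe sets lie above 0 for 100 nM against ethanol (0.70, 0.20 and 0.50) and against 1 nM (0.47, 0.42 and 0.74), and on both sides of 0 for 1 nM against ethanol.

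Tns2 ran the other way over the same libraries, within a narrow range. Its 1 probe set (1452264_at) read 255 in the ethanol library, 243 at 1 nM, 212 at 100 nM and 213 after spironolactone. Both libraries that received 100 nM aldosterone lay together under the other pair. The difference from ethanol was -0.27 with 100 nM and -0.26 with spironolactone, and the 2 libraries with 100 nM differed by 0.01. None of these came near 1.5-fold. Of all genes, the central 90% lay between -0.38 and 0.40 for 100 nM against ethanol, so Tns2 was inside the range of most genes, with 1014 of the 11057 lower than it.

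Tns3 hardly varied. The leading probe set (1455333_at) read 2889 in the ethanol library, 3065 at 1 nM, 2838 at 100 nM and 3200 after spironolactone, a 1.13-fold range. The differences were -0.03 for 100 nM against ethanol, -0.11 for 100 nM against 1 nM and 0.17 for spironolactone against 100 nM. A dim second probe set (1446636_at) had signals of 40.3, 60.2, 91.6 and 19.9 in the order ethanol, 1 nM, 100 nM and spironolactone. Its mean lay under the filter and 2 of its 4 values were above it. It stood highest with 100 nM, as the leading probe set did not, and its fold values are not given because signals this low carry no reliable order.

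Tns4 gave no usable level. Its 2 probe sets had signals of 18.6, 40.8, 2.96 and 25.8 (1444254_at) and of 33.5, 15.4, 4.92 and 2.80 (1439347_at), in the same order, and all 8 values were under the filter. The probe sets were highest in different libraries, 1 nM for the first and ethanol for the second. No detection calls were at hand, so Tns4 is described as under the filter in all 4 libraries.

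Tns1 was set beside 6 genes known to respond to corticosteroids or reported for this system (Sgk1, Per1, Tsc22d3, Fkbp5, Klf9 and Rasl12), a list picked with earlier results of these libraries known. All 6 were higher with 100 nM aldosterone than with ethanol, 4 of them by at least 1.5-fold, with log2 differences of 1.18 for Sgk1, 1.19 for the clock repressor Per1, 0.94 for Tsc22d3 (the glucocorticoid-induced leucine zipper), 0.67 for the small GTPase Rasl12, 0.45 for the transcription factor Klf9 and 0.40 for the co-chaperone Fkbp5. Among all genes 2.39% passed 1.5-fold upward, and nothing is read from the 4 in a list so picked. The leading Tns1 value of 0.70 stood between Rasl12 and Tsc22d3, and its other probe sets, at 0.20 and 0.50, stood lower. The reference gene values, and the 4 past 1.5-fold, are of leading probe sets. Their other probe sets parted too: the second of Fkbp5 differed by 0.72, past 1.5-fold. Klf9 probe sets ran from 0.15 to 1.04 and those of Tsc22d3 from 0.53 to 0.94, so the place of Tns1 depended on the probe set. Against ethanol at 1 nM the leading probe sets of the reference genes ran from -0.04 for Per1 to 0.52 for Fkbp5, and that of Tns1 was 0.23. Over all probe sets above the filter the reference genes ran from -0.45 (Klf9) to 0.58 (Tsc22d3). The Tns1 probe sets, from -0.24 to 0.23, lay inside that span. By leading probe sets, the share of the 100 nM difference by which spironolactone was lower was 29.4% for Sgk1, 37.5% for Klf9, 48.7% for Tsc22d3, 49.8% for Per1, 50.5% for Rasl12 and 73.7% for Fkbp5. The leading Tns1 probe set was at 69.1%. Over all their probe sets above the filter, Tns1 ran from 38.1% to 69.1%, Tsc22d3 from 17.0% to 48.7%, Fkbp5 from 54.7% to 73.7% and Klf9 from -9.21% to 107%, so the share depended on the probe set.

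**Figure D3:**
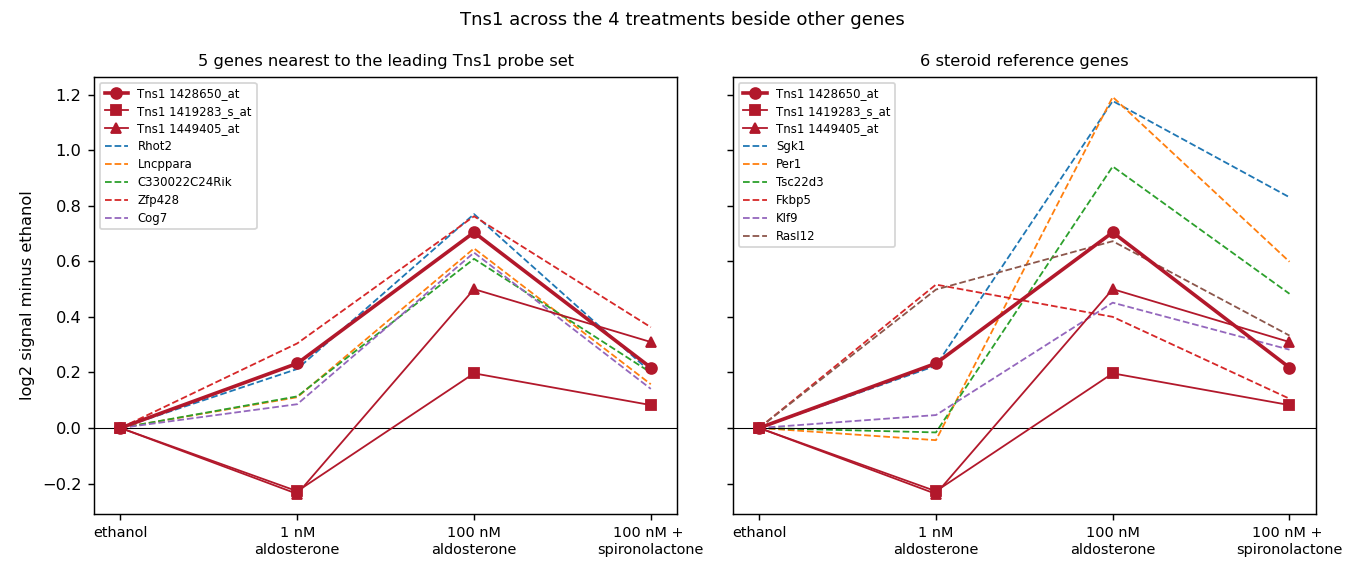
Log2 signal minus that of the ethanol library (vertical axis) in the 4 libraries (horizontal axis) for the 3 Tns1 probe sets (solid lines) beside the 5 genes nearest in pattern (left, dashed) and the 6 steroid reference genes (right, dashed). All 3 Tns1 lines peak at 100 nM aldosterone, at 0.70, 0.20 and 0.50, and 2 of them dip below 0 at 1 nM.

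Likeness of pattern was measured as the Euclidean distance between 4 log2 signals, each gene centred on its own mean, over the 4 libraries and 11056 other genes. The genes nearest to the leading Tns1 probe set were Rhot2, a mitochondrial outer membrane protein gene (distance 0.07, signals 139.5, 162, 238 and 160), Lncppara, C330022C24Rik, Zfp428 and Cog7, a subunit of a Golgi tethering complex, the last at 0.104. A distance under 0.25 was shared by 114 genes. Around Tns2 the nearest were Tlcd1, Rhpn2, Nlrc5, the laminin chain gene Lama5 and Klhl14, at 0.02 to 0.03, and 3809 genes lay within 0.25. Around Tns3 they were Ebna1bp2, the protein kinase A subunit gene Prkar2b, the adhesion adaptor Crk, the non-muscle myosin heavy chain gene Myh9 and Tbrg4, at 0.01, with 6339 genes within 0.25. Tns2 and Tns3 varied little, with ranges of 1.20-fold and 1.13-fold, so genes with flat signals also lie within 0.25 of them. The last counts therefore do not show that those genes shared the order of Tns2 or Tns3.

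The machinery the tensins join was taken from 7 lists of adhesion and actin genes. Of 115 genes listed, 89 passed the filter. With 100 nM aldosterone against ethanol 3 of the 89 (3.37%) passed 1.5-fold in either direction, near the 4.11% of all genes: Acta2 and Ccn2 were higher and Itga2b was lower. For 1 nM against ethanol 1 of 89 passed (Acta2), for 100 nM against 1 nM 2 (Ccn2 and Parvb), for spironolactone against 100 nM 2 (Itga5 higher, Tgm2 lower) and for spironolactone against ethanol 1 (Itgb8, lower). Each of these shares was under that of all genes, but they were not matched for signal. With the filter at the 75th percentile, 29 genes passed for 100 nM against ethanol, 1 of them from these lists. With the filter used here 454 genes passed. Fewer genes entered at the higher filter and their number is not given, so these counts give no shares. Since signal was not matched, the lower shares are not read as adhesion genes varying less than others.

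Integrin subunits, the receptors whose beta tails tensins bind, had a median log2 difference of -0.12 over 11 of 20 genes for 100 nM against ethanol, where all genes had -0.0046. Of the 11, 9 were below 0. The beta chain gene Itgb1 had signals of 4238, 4824, 4799 and 4557 in the order ethanol, 1 nM, 100 nM and spironolactone, a difference of 0.18 with 100 nM. Its second probe set differed by 0.15 and its dimmest, with signals of 228, 285, 360 and 302, by 0.66, past 1.5-fold. The difference was 0.02 for Itgb5 (-0.11 in its dimmest probe set), -0.30 for the dim fibronectin receptor subunit Itga5 and -0.59 for Itga2b, a platelet integrin subunit. With spironolactone against 100 nM the median was 0.17 and 8 of the 11 were above 0. Both comparisons contain the 100 nM library.

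The activators and linkers that connect integrins to actin had medians of -0.04 and 0.11 over 14 of 17 genes in these 2 comparisons, with 0 past 1.5-fold. For 100 nM against ethanol the differences ran from -0.21 for the talin-associated scaffold Kank1 and -0.16 for the actin crosslinker Actn4 to 0.08 for the parvin gene Parvb and 0.09 for Rsu1, a partner of the integrin-linked kinase complex. The LIM and scaffold proteins of focal adhesions had medians of 0.02 and 0.0013 over 20 of 24 genes, again with 0 past 1.5-fold. Their extremes for 100 nM against ethanol were 0.19 for the exchange factor gene Arhgef7 and 0.17 for Sorbs3 against -0.28 for Pdlim7 and -0.26 for Git1. The dimmest Pdlim7 probe set differed by 0.03. Adhesion kinases and phosphatases had medians of -0.08 and 0.05 over 11 of 15 genes, with 0.17 for Csk, 0.14 for Fyn, -0.30 for Src and -0.26 for Akt1 and 0 past 1.5-fold. The second Fyn probe set differed by -0.20, the opposite sign.

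Known partners of tensins had a median of 0.0024 over 15 of 17 genes for 100 nM against ethanol and 0.03 for spironolactone against 100 nM, with 0 past 1.5-fold. Dlc1, a GTPase-activating protein that docks on the tensin SH2 and PTB domains, had signals of 979, 945, 800 and 809 in the order ethanol, 1 nM, 100 nM and spironolactone. Its difference from ethanol was -0.29 with 100 nM and -0.27 with spironolactone, beside -0.27 and -0.26 for Tns2. The next Dlc1 probe sets differed from ethanol by -0.13 and 0.03 with 100 nM and by 0.14 and -0.34 with spironolactone. Neither direction was shared by all 3. Of the other partners, Mtor differed by 0.15 and Tsc1 by -0.16, with 0.07 and 0.27 in 2 dim further probe sets of Tsc1.

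The genes of fibronectin assembly, the process that fibrillar adhesions carry out, had medians of -0.01 and -0.06 over 8 of 11 genes. Tgm2, a matrix crosslinking transglutaminase, differed by 0.49 for 100 nM against ethanol and by -0.80 for spironolactone against 100 nM, but its 5 probe sets ran from -0.56 to 0.49 in the first comparison and from -0.80 to 0.52 in the second. Fn1, which encodes fibronectin itself, had signals of 5182, 5132, 4597 and 5456 in the same order and a difference of -0.17, with -0.79 in its second probe set. The matricellular Thbs1 differed by 0.19.

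Actin genes and targets of the actin-sensing factors SRF and MRTF had medians of -0.04 and 0.01 over 18 of 20 genes. Past 1.5-fold for 100 nM against ethanol were Acta2, smooth muscle actin, with signals of 62.0, 102, 109 and 77.0 (0.81 with 100 nM), and Ccn2, a matrix-associated growth factor, with signals of 3342, 2887, 5602 and 4835 (0.75). The first had its ethanol signal next to the filter. Ccn2 stood 0.96 above the 1 nM library and -0.21 from 100 nM with spironolactone. The lowest of the list were Tagln2 at -0.44, whose second probe set differed by 0.18, and Zyx at -0.22. A second Zyx probe set, with signals of 47.7, 132, 175 and 135, differed by 1.88.

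**Figure D4:**
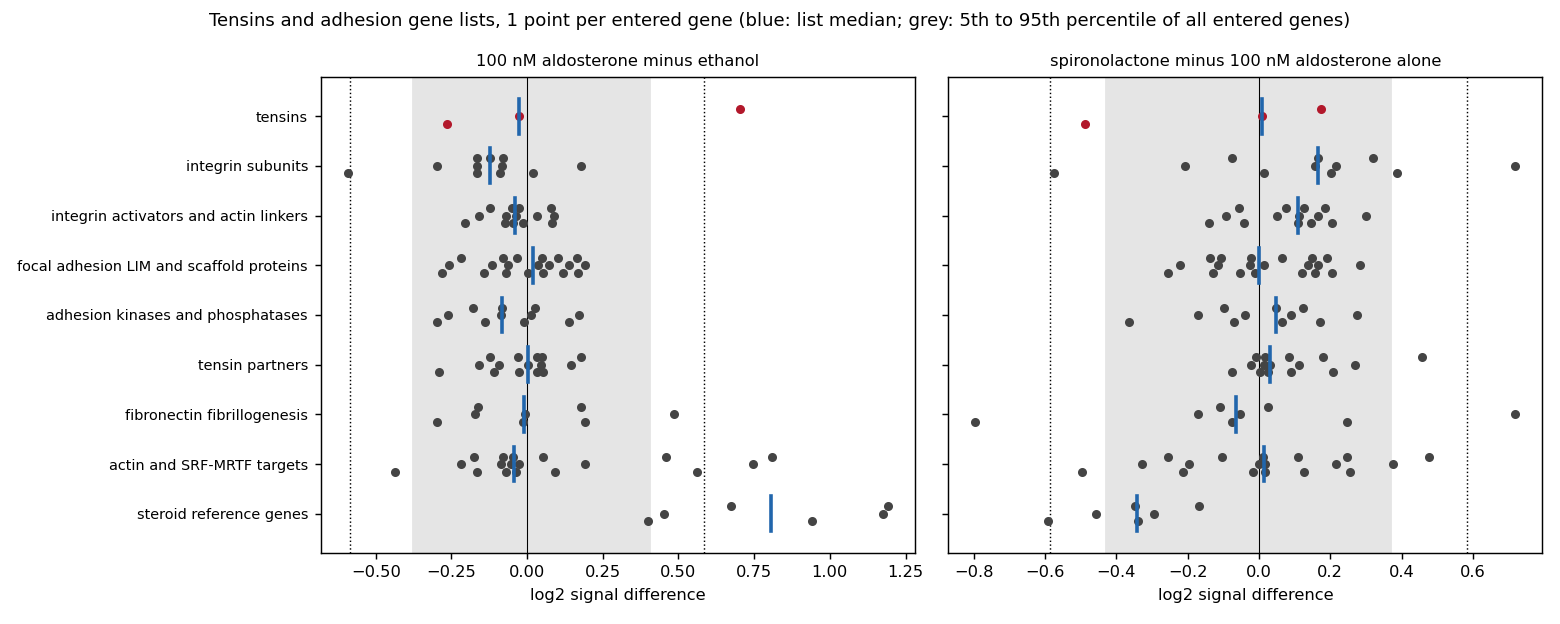
Log2 signal difference (horizontal axis) for 100 nM aldosterone against ethanol (left) and for spironolactone against 100 nM alone (right), 1 point per gene above the filter, in rows by list; blue bars are list medians, grey bands the 5th to 95th percentile of all 11057 genes and dotted lines 1.5-fold. Tns1 is the tensin at 0.70 on the left and at -0.49 on the right, and the list medians of the adhesion genes lie between -0.12 and 0.17.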

How the data were processed

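The deposited values are probe set intensities (signal) on a linear scale, which the authors made with MAS5, as the submitters' processing notes state. Its version and scaling target were not given in the sources used here, and detection calls were not used. The table held 45101 probe sets, of which 64 array controls were left out. By the platform annotation 34945 probe sets had 1 symbol, 932 several and 9160 none, and 34741 of the first kind matched RefSeq genes of GRCm38.p6 by Entrez identifier, which changed 0 symbols. Differences are of log2 signal with no pseudocount and no further scaling. No test was possible with 1 array per treatment, whose number limits the precision.

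Named genes were all tensins, of each gene list the 2 highest and 2 lowest members for 100 nM aldosterone against ethanol, the 5 genes nearest in pattern to each tensin above the filter, and the steroid reference genes; other genes past 1.5-fold were named after their values were seen. The members and lists were chosen with earlier results of these data known. The code was run on simulated data with small noise and with shifts larger than the Tns1 differences. That run says nothing about how reliable the differences between these libraries are. Alternatives were an offset of 50, median centring, quantile normalization, low signals raised to the filter, the median over probe sets, and other filters. Python 3.11.15, numpy 2.4.6 and pandas 2.3.3 were used.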

Additional observations from a re-analysis of the deposited data

How the results depend on the processing

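Changes with the processing were judged against the median gap between probe sets of a gene, 0.15 to 0.16 on the log2 scale. With 50 added, median centring or quantile normalization, Tns1, Tns2 and Tns3 moved by less than that in all 5 comparisons. Raising low signals to the filter could not change them, since all their signals lay above it, and the median over probe sets could not change Tns2 or Tns3, each with 1 probe set above the filter. With the median over its probe sets Tns1 was 0.50 for 100 nM against ethanol, below 1.5-fold, -0.19 for spironolactone against 100 nM and -0.23 for 1 nM against ethanol, where the sign changed. Tns4, under the filter throughout, was set by the treatment of low signals: as deposited its differences were -2.65 (100 nM against ethanol), 1.13 (1 nM against ethanol), -3.79 (100 nM against 1 nM), 3.12 (spironolactone against 100 nM) and 0.47 (spironolactone against ethanol), with 50 added before log2 they were -0.37, 0.41, -0.78, 0.52 and 0.14, and with low signals raised to the filter all 5 were 0. These values are of the leading Tns4 probe set. As deposited the other one differed by -2.77, -1.12, -1.65, -0.81 and -3.58 in the same order. Its sign was the opposite for 1 nM against ethanol and in both spironolactone comparisons, so the choice of probe set mattered as well. No Tns4 probe set was left for the median over probe sets. The cause of the Tns1 changes was not tested beyond the probe set values themselves.

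In the same order of comparisons, 454, 518, 443, 479 and 465 genes passed 1.5-fold; with 50 added there were 167, 186, 141, 166 and 141, with the filter at the 75th percentile 29, 44, 32, 32 and 27 (fewer genes entered), and with no filter 4746, 4828, 4744, 4800 and 4766. The adhesion lists had 3, 1, 2, 2 and 1 of 89 genes past 1.5-fold. With 50 added the counts were 1, 0, 1, 1 and 0, and with the higher filter 1, 0, 1, 0 and 0. Without a filter they were 10, 11, 10, 10 and 12 of 106 listed genes, beside 4746, 4828, 4744, 4800 and 4766 of all 18193 genes. The counts of all genes rose too, so nothing is read from the rise in the lists. Median centring gave 2 for 1 nM against ethanol. Median centring also moved the share of higher among genes past 1.5-fold from 55.8% to 42.3% for 1 nM against ethanol and from 51.0% to 61.3% for 100 nM against 1 nM. All 245 values of list medians moved by less than the gap between probe sets. Nearly all list medians were themselves smaller than that gap, so nothing is read from this. Some changed sign, such as that of integrin subunits for spironolactone against ethanol, from 0.08 to -0.05 with no filter. The integrin median for spironolactone against 100 nM went from 0.17 to 0.05 with no filter. Signals near or under the filter limit what can be said of dim genes.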
